A study of Homo sapiens with 72 samples.

Results

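The 10 genes described here encode negative feedback regulators of the ERK pathway: 6 dual-specificity phosphatases (DUSP1, DUSP2, DUSP4, DUSP5, DUSP6 and DUSP10), the Sprouty proteins SPRY1 and SPRY2, and the Sprouty-related proteins SPRED1 and SPRED2. They were taken by name from GENCODE release 44 on hg38 and are 10 of 20033 protein-coding genes. Their chromatin was measured by Cut&Tag, in which an antibody directs a transposase to a histone mark and the cut fragments are sequenced, with antibodies to H3K4me2, H3K4me3 and H3K27me3. The series names the third mark H3K27me3 in the sample labels and H3K27me2 in its design text, and the name in the labels is used here. Of 54 libraries, 18 belonged to each mark, with 3 replicates of each line and treatment.

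The cells were 3 human B-lineage lines: Raji, an Epstein-Barr virus-positive Burkitt lymphoma line, and NALM6 and REH, pre-B acute lymphoblastic leukemia lines. Each was either left untreated or given bryostatin at 1 nM. Each line is a single established culture, and nothing in the sources used here says that the replicates were separate cultures, so p-values measure only the spread between these libraries. Chromatin of the lines carried the marks of their lineage: 6 of 6 B-lineage marker genes had an H3K4me3 peak at a start in each line in at least 1 library (6 of 6 in all 6 libraries in Raji, 4 in NALM6 and 5 in REH), and 0 of 3 T-cell and 0 of 3 myeloid markers did in any library.

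Bryostatin is a macrocyclic lactone that binds and activates protein kinase C, and in lymphocytes protein kinase C feeds into RAS, RAF, MEK and ERK. Active ERK turns on genes whose products then switch the pathway off: the phosphatases remove the phosphates from ERK and its relatives, Sprouty proteins act between receptors and RAF, and SPRED proteins bring neurofibromin to RAS at the membrane. H3K4me3 marks active and poised promoters, H3K4me2 covers promoters and enhancers, and H3K27me3 is laid down by Polycomb over repressed genes.

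Peaks had been called separately in each library. A gene's level is the summed signal of the peaks over the gene and 3 kb on either side, divided by the library's median over the genes with a peak in all 18 libraries of that mark (4357 genes for H3K4me2 and 4860 for H3K4me3), so that 1 is the level of a typical marked gene of that library. A level of 0 means that no peak was called. It is not the absence of the mark, since depth ran from 5.12 to 47.9 M mapped reads (M standing for 1000000, median 18.8) in the 48 libraries where it could be read, and the lowest level that a called peak gave was 0.00888 to 0.521 for H3K4me3 and 0.0410 to 0.316 for H3K4me2, depending on the library. A mark on fewer cells and a lower mark per cell cannot be told apart in bulk libraries. No other protein-coding gene starts within the members' windows.

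Some libraries stood apart. The 6 libraries of NALM6 replicate 1 had been scaled by another, unstated rule and held short peaks. Raji untreated replicate 2 of H3K27me3 had 34.8% of its peaks over H3K4me3 peaks, against 0.819% to 7.20% in the other 17 H3K27me3 libraries. For H3K4me2 in Raji, the treated libraries (15.6 to 18.8 M reads) were all deeper than the untreated ones (6.70 to 13.9 M).

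The promoters of DUSP1, DUSP2, DUSP6 and SPRY2 are shown because they cover the patterns below: marked in every line, missing in REH, or missing in Raji. Each run is the 250 bases 5′ of the RefSeq start on the GRCh38.p14 reference, read 5′ to 3′ on the gene's own (minus) strand. They lie just outside the transcribed region, at chr5:172771196-172771445, chr2:96145441-96145690, chr12:89352502-89352751 and chr13:80341127-80341376 in that order. Capitals mark matches, on either strand, to the letters searched: TGACGTCA (the cAMP response element), GGGCGG (an SP1 box) and CCGGAA (an ETS core). TGANTCA (AP-1) and the CArG box were searched too and matched none of the 4.
DUSP1: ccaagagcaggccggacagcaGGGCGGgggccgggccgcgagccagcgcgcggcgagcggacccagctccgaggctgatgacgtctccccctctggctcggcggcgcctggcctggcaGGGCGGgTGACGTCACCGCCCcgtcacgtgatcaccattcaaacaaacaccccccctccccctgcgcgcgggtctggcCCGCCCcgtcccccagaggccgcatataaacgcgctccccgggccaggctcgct
DUSP2: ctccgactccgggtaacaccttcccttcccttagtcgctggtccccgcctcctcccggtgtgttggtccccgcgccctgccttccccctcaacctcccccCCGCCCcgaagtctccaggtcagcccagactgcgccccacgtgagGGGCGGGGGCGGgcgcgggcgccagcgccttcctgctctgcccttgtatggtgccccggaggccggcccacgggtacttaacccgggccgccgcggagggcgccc
DUSP6: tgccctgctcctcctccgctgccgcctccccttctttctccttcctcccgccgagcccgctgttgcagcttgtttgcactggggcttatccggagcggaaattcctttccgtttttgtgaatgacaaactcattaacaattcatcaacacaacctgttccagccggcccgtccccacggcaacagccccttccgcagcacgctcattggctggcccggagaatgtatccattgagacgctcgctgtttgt
SPRY2: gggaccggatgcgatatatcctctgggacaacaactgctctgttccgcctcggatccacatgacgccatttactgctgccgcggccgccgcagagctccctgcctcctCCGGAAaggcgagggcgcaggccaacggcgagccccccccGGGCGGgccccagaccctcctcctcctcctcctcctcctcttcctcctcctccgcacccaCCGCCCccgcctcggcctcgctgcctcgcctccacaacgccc

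DUSP1 held the cAMP response element at -125 and 4 SP1 boxes, DUSP2 held 3 SP1 boxes, SPRY2 held the ETS core at -142 and 2 SP1 boxes, and DUSP6 held none of the letters searched, positions being those of a match's first base relative to the start. Of 35116 RefSeq promoters, taken with 50 bases after the start, 1.85% held TGACGTCA, 17.2% CCGGAA, 45.0% GGGCGG, 7.71% TGANTCA and 1.29% a CArG box. No 2 matches overlapped. Of the other members in the RefSeq table, DUSP10 had 3 SP1 boxes, SPRED1 and SPRED2 had 1 each, and SPRY1 had none of the letters. DUSP5 had no entry.

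A peak covered all 250 bases of the DUSP1 promoter in 6 of 6 libraries of each line for both H3K4me2 and H3K4me3. The DUSP2 run was covered in Raji (6 of 6 libraries for both marks) and NALM6 (6 for H3K4me2, 5 for H3K4me3), and in 0 of 6 in REH for both. The DUSP6 run was covered in 0 of 6 Raji libraries for both marks, against 6 of 6 in REH and 5 of 6 in NALM6. The SPRY2 run was likewise covered in 0 of 6 Raji libraries and in 6 of 6 REH libraries for both, with 6 (H3K4me2) and 4 (H3K4me3) in NALM6.

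Most members carried a peak in some lines and not in others, treated or not. DUSP1, DUSP10 and SPRED2 were marked by H3K4me2 in all 18 libraries. DUSP6, SPRY1 and SPRY2 were marked in both leukemia lines and, apart from 2 treated Raji libraries for DUSP6, not in Raji. DUSP2, DUSP5 and SPRED1 were marked in Raji and in some or all NALM6 libraries and in none of REH. DUSP4 had H3K4me2 in 4 of 6 REH libraries and in none of Raji or NALM6.

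As a background, the share of all protein-coding genes with an H3K4me2 peak in all 6 libraries was 48.3% in Raji, 24.8% in NALM6 and 53.2% in REH, and the share with none was 34.9%, 42.0% and 31.8%. For H3K4me3 the shares in all 6 were 52.7%, 25.7% and 44.3%, and the shares with none 41.4%, 40.8% and 38.4%.

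The tests between untreated lines used limma on log2(level + 0.25), with Benjamini-Hochberg adjustment over all genes tested and 3 libraries a group. For H3K4me2, 30.2% of 13075 genes differed between Raji and REH, 26.9% between Raji and NALM6 and 22.3% between NALM6 and REH. Of the 9 members tested (DUSP4 had too few peaks), 8, 5 and 1 differed. For H3K4me3, 25.3% of 12133 genes differed between Raji and REH, 25.1% between Raji and NALM6 and 13.5% between NALM6 and REH, and 7, 6 and 3 of the 9 members tested did. Without NALM6 replicate 1, the H3K4me2 counts against NALM6 became 8 (Raji) and 7 (REH), and the H3K4me3 counts became 8 (Raji and REH), 8 (Raji and NALM6) and 6 (NALM6 and REH). Counts over all genes rose in the same fits. In that order they went from 3523 to 5273 and from 2911 to 3830 for H3K4me2. For H3K4me3 they went from 3066 to 5845, from 3047 to 5091 and from 1634 to 3279.

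DUSP2 (chr2:96143169-96145440, minus strand), a nuclear phosphatase known from activated lymphocytes, was marked in Raji and NALM6 and not in REH. Its H3K4me2 level was 2.35, 2.42 and 2.37 in untreated Raji and 1.40, 1.59 and 1.65 in untreated NALM6, and no peak was called in REH, so the lines did not overlap. NALM6 was above REH (adjusted p = 9.60e-07) and Raji above NALM6 (log2 difference 0.55, adjusted p = 0.00359). By the highest signal in place of the summed signal, the difference between Raji and NALM6 was 0.10 (adjusted p = 0.673). H3K4me3 was 1.27, 1.20 and 1.52 in untreated Raji and 1.13, 0.908 and 0.948 in NALM6, with no peak in REH, and these 2 marked lines did not pass the test between them (0.35, adjusted p = 0.0554) unless NALM6 replicate 1 was left out (0.42, adjusted p = 0.00632).

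DUSP5 (chr10:110497907-110511533, plus strand), a nuclear phosphatase specific to ERK, was highest in Raji for both H3K4me2 and H3K4me3. Its H3K4me3 level was 1.34, 1.15 and 1.06 in untreated Raji, 0, 0.0881 and 0.0590 in NALM6, and 0 in all REH libraries. Raji was above both REH (adjusted p = 4.26e-06) and NALM6 (log2 difference 2.27, adjusted p = 1.23e-05). For H3K4me2, untreated Raji had 1.72, 1.56 and 1.57 and NALM6 had 0, 0.453 and 0.483, with no peak in REH. The H3K4me2 difference between Raji and NALM6 (1.89, adjusted p = 0.00678) was 1.01 by the highest signal (adjusted p = 0.139). NALM6 and REH did not pass between themselves for either mark. Without NALM6 replicate 1 that pair passed for H3K4me2 (NALM6 minus REH 1.52, adjusted p = 7.98e-06) and H3K4me3 (0.37, adjusted p = 0.0267). The window also holds the start of DUSP5-DT, a divergent noncoding transcript, so a peak at this start is shared between both.

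DUSP1 (chr5:172768096-172771195, minus strand), an early response phosphatase acting on p38, JNK and ERK, was marked everywhere but to different extents. Its H3K4me3 level was 0.271, 0.296 and 0.307 in untreated Raji. NALM6 had 0.657, 1.25 and 1.18, and REH had 2.34, 2.41 and 2.41, so no lines overlapped. All 3 differences passed (Raji minus REH -2.28, adjusted p = 2.68e-05; Raji minus NALM6 -1.21, adjusted p = 0.00140; NALM6 minus REH -1.08, adjusted p = 0.00404). By the highest signal the last was -0.59 (adjusted p = 0.220). For H3K4me2 the lines were closer (1.04 to 1.20 in untreated Raji, 1.37 to 2.05 in NALM6 and 1.65 to 1.87 in REH). The H3K4me2 difference between Raji and REH passed (-0.56, adjusted p = 0.0208), but it was 0.17 by the highest signal (adjusted p = 0.239) and did not pass without Raji replicate 1 or 3 or any 1 of the REH replicates, with adjusted p from 0.0546 to 0.101.

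DUSP4 (chr8:29333064-29350684, minus strand), a nuclear phosphatase induced by ERK, had H3K4me2 levels of 0.175, 0 and 0.203 in untreated and 0.224, 0.236 and 0 in treated REH. These sit close to the lowest level a peak gave in REH libraries (0.0762 to 0.256), and H3K4me3 was called in 1 REH library, at 0.0661. DUSP6 (chr12:89347235-89352501, minus strand), the cytoplasmic ERK phosphatase, had H3K4me3 levels of 1.99, 1.80 and 1.68 in untreated NALM6 and 1.84, 1.83 and 1.87 in untreated REH, and no peak in any Raji library. Raji was below both (adjusted p = 3.95e-07 against NALM6 and 4.73e-07 against REH), and the 2 leukemia lines overlapped. Its H3K4me2 showed the same arrangement: 2.65, 1.88 and 1.80 in NALM6, 2.42, 2.53 and 2.34 in REH, and no peak in untreated Raji. NALM6 was below REH without NALM6 replicate 1 (-0.36, adjusted p = 0.00398). Treated Raji had 0.0941 and 0.0689 in replicates 1 and 2.

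DUSP10 (chr1:221701424-221742089, minus strand), a phosphatase that prefers JNK and p38, had H3K4me2 levels of 1.96, 1.68 and 1.50 in untreated Raji. NALM6 had 2.07, 0.934 and 1.02, and REH had 0.713, 0.677 and 0.757, the lowest of the lines. Raji was above REH (log2 difference 1.02, adjusted p = 0.0148), a call not made without Raji replicate 1, REH replicate 1 or REH replicate 2 (adjusted p 0.0593, 0.0519 and 0.0608) or with equal numbers of peaks per library (0.62, adjusted p = 0.0869). NALM6 replicate 1 lay apart from its other 2 replicates. For H3K4me3, DUSP10 in Raji and NALM6 lay at the threshold without passing (1.10, adjusted p = 0.050), and it passed without any 1 of the NALM6 replicates (0.00255, 0.0345 and 0.0388). Raji and REH did not pass (0.56, adjusted p = 0.307) except without NALM6 replicate 1, which shares the fit (0.00247).

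SPRY1 (chr4:123396795-123403760, plus strand) and SPRY2 (chr13:80335976-80341126, minus strand), adaptors that hold back receptor signalling to RAS, were unmarked in Raji and marked in both leukemia lines. SPRY1 H3K4me2 was 1.01, 0.988 and 0.766 in untreated NALM6 and 1.12, 1.13 and 1.18 in REH. SPRY2 H3K4me2 was 1.09, 1.25 and 1.32 in NALM6 and 1.13, 1.23 and 1.18 in REH. No Raji library had a peak of either K4 mark over either gene. For both genes and both marks Raji was below REH and below NALM6, with adjusted p from 1.10e-06 to 2.26e-05, and NALM6 and REH did not pass between themselves. Without NALM6 replicate 1 that pair did pass for SPRY1, at -0.32 (NALM6 minus REH) for H3K4me2 (adjusted p = 0.0468) and 0.24 for H3K4me3 (adjusted p = 0.0169).

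SPRED1 (chr15:38252836-38357249, plus strand) had H3K4me3 levels of 0.843, 1.06 and 0.947 in untreated Raji and 1.05, 1.08 and 1.04 in NALM6, and none in REH, with both marked lines above REH (adjusted p = 1.59e-06 and 2.45e-06). Its H3K4me2 was lower, at 0.624, 0.478 and 0.697 in Raji and 0, 0.724 and 0.617 in NALM6. The H3K4me2 difference between Raji and REH passed (adjusted p = 0.0226), but not without Raji replicate 1 or 3 or any 1 of the REH replicates (0.0695 to 0.0736), or with equal numbers of peaks (adjusted p = 0.213). SPRED2 (chr2:65310851-65432637, minus strand) was marked in every line. Its H3K4me2 was 2.54, 1.98 and 2.39 in Raji, with 1.92, 1.70 and 1.66 for NALM6 and 2.00, 1.92 and 2.08 for REH. No pair of lines passed for this mark, although Raji minus NALM6 did without Raji replicate 2 (0.43, adjusted p = 0.0228) or NALM6 replicate 1 (0.40, adjusted p = 0.0188). Its H3K4me3 was lower in Raji than in NALM6 (-0.66, adjusted p = 0.0110).

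Of 180 pairs of a member and a library, 35 had an H3K27me3 peak, and 29 did so without Raji untreated replicate 2. Over all 20033 protein-coding genes, a library had from 352 (NALM6 treated replicate 1) to 13039 (Raji untreated replicate 2) with a peak. Members without a peak in any library numbered 0 in Raji, 7 in NALM6 and 7 in REH, beside 18.9%, 58.1% and 72.9% of all genes. Among all protein-coding genes, 2.09% had an H3K27me3 peak in all 6 libraries in Raji, 1.17% in NALM6 and 13.8% in REH. DUSP5 in REH was the one case of a member marked in all 6. SPRED2 had a peak in 5 of 6 REH, 3 of 6 NALM6 and 3 of 6 Raji libraries.

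Over DUSP5, the marks called differed between the lines. In REH, H3K27me3 covered 19627, 19627 and 17347 bp of the 19627 bp window in untreated and 17917, 19327 and 19627 bp in treated libraries (88.4% to 100% of it), while neither K4 mark was called. Untreated replicates 1 and 2 each had a single domain across the gene, of 61320 bp (chr10:110470481-110531800) and 50020 bp (chr10:110470371-110520390). The mean cover was 18867 ± 1316 bp untreated and 18957 ± 913 bp treated (SD, n = 3 each, exact two-sided permutation p = 1). In NALM6, replicates 2 and 3 had 5503 and 5320 bp untreated and 7263 and 4290 bp treated (21.9% to 37.0% of the window), and replicate 1 had no member peak in either group. None of these NALM6 peaks lay over the start, where K4 marks were called. The nearest began 11124 and 9644 bases downstream in untreated replicates 2 and 3 and 9364 in treated replicate 2. In treated replicate 3 it was 164 bases from the start. In Raji, only untreated replicate 2, the library with peaks over H3K4me3, had H3K27me3 there (4160 bp).

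**Figure D1:**
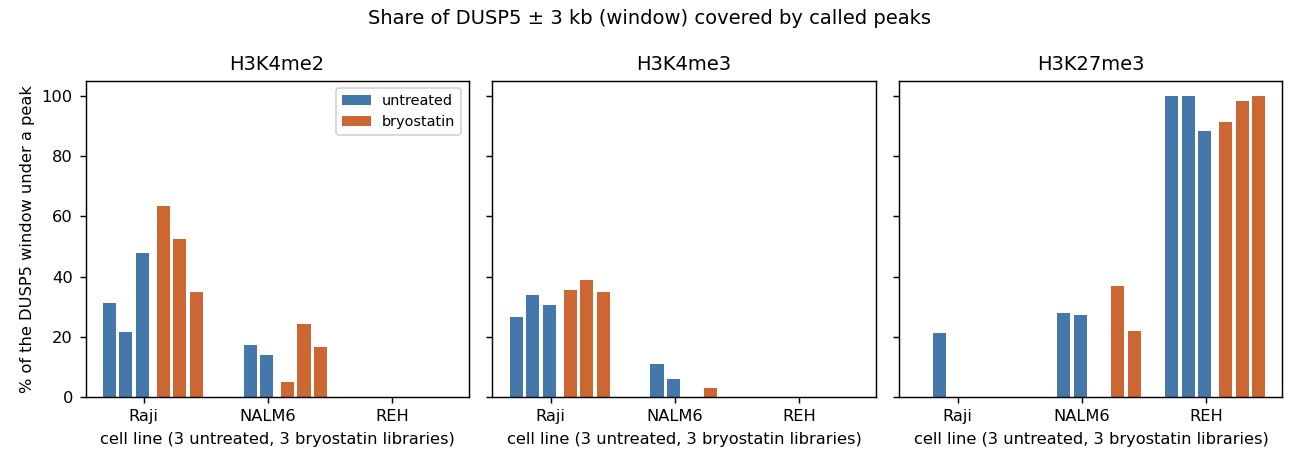
Share of the DUSP5 window (gene and 3 kb flanks) covered by called peaks of each mark in every library, in percent, by line and treatment. H3K27me3 covers 88.4% to 100% in the 6 REH libraries, where H3K4me2 and H3K4me3 are at 0.

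In Raji, H3K27me3 over the unmarked members came from replicate 3 of each treatment. These were the libraries with the most peaks of this mark in Raji, 73265 untreated and 101702 treated. Their peaks lay over 8022 and 8156 of 20033 genes, and over 5 and 4 of the 10 members. DUSP6 had 7540 bp untreated and 1340 bp treated, and SPRY2 had 3900 and 3660 bp. Raji untreated replicate 1 and treated replicates 1 and 2 had no member peak and had 819, 3424 and 2778 H3K27me3 peaks in all, so the mark was not detectable at the members in these libraries, which does not show its absence. SPRED2 in REH had 4457, 5057 and 3047 bp untreated and 0, 57 and 2857 bp treated. These groups did not overlap, but 3 against 3 cannot give an exact two-sided permutation p under 0.1, which is the p here (4187 ± 1032 against 971 ± 1633 bp, SD, n = 3 each). The SPRED2 lengths were cut at the 3 kb flank. Uncut, the peaks summed to 9370, 10040 and 4740 bp untreated, and to 1670 and 4560 bp in treated replicates 2 and 3, so the groups nearly met. The share of all genes without overlap was not counted for this mark.

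Bryostatin was set against no treatment within each line, to see whether the feedback genes carried more K4 methylation after protein kinase C activation. Over the gene windows no member passed limma's test in any line for either mark, and at the starts (1 kb on either side) 1 did: H3K4me3 of SPRY2 rose in REH. The closest to a call otherwise was H3K4me3 of DUSP5 in Raji. Few genes elsewhere passed either. In the gene windows, limma called for H3K4me2 0.0326% of 12258 genes (Raji), 0% of 10568 (NALM6) and 0.0323% of 12380 (REH), and for H3K4me3 0% of 11339 (Raji), 0% of 10974 (NALM6) and 0.271% of 10699 (REH).

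At the starts the called shares were 0.0358%, 0% and 0.262% for H3K4me2 in Raji, NALM6 and REH, and 0%, 0% and 0.428% for H3K4me3. At an unadjusted p under 0.05 the gene windows of 0 members in Raji, 0 in NALM6 and 3 in REH passed for H3K4me2, and 4, 0 and 4 for H3K4me3. For H3K4me2 that is 0 of 6, 0 of 9 and 3 of 7 members tested, beside 4.10%, 1.29% and 4.6% of all genes, and for H3K4me3 4 of 6, 0 of 9 and 4 of 6, beside 4.44%, 0.173% and 6.72%. The median log2 change of the members tested was -0.01, -0.06 and 0.09 for H3K4me2 in Raji, NALM6 and REH, against 0.03, 0.03 and -0.01 for all genes tested. For H3K4me3 it was 0.23, 0.03 and 0.11 against -0.00, -0.10 and -0.00.

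Members whose treated and untreated libraries did not overlap were counted as well. For H3K4me2 this held for 1 of 6 members in Raji (DUSP5, higher), 1 of 9 in NALM6 (SPRED2, lower) and 3 of 7 in REH (DUSP10 and SPRY2 higher, SPRED2 lower), with a background over all genes, in either direction, of 9.62%, 8.84% and 10.3%. For H3K4me3 it held for 3 of 6 in Raji (DUSP2, DUSP5 and SPRED2, higher), 2 of 9 in NALM6 (DUSP1 and DUSP6, higher) and 5 of 6 in REH (DUSP6, SPRY1, SPRY2 and SPRED2 higher, DUSP1 lower), with a background of 11.2%, 4.0% and 13.8%.

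DUSP5 H3K4me3 in Raji was 1.34, 1.15 and 1.06 untreated and 2.23, 2.18 and 2.11 with bryostatin. Every treated library was above every untreated one, with 13.5 to 27.3 M reads treated and 20.1 to 47.9 M untreated. The log2 change was 0.76 (SE 0.08, n = 3 a group) over the gene and 0.77 (SE 0.08) at the start, with adjusted p of 0.0977 and 0.0630. With replicates blocked by their number, a pairing that the labels do not give, both passed (adjusted p = 0.0476 and 0.0326). Without untreated replicate 1 both passed as well (0.0305 and 0.0395). By the highest signal the change was 0.56 and the adjusted p 0.950, the top of the range over the alternatives. H3K4me2 over DUSP5 was 1.72, 1.56 and 1.57 untreated and 1.80, 1.88 and 1.74 treated (0.14, SE 0.09, adjusted p = 0.830), with the treated libraries the deeper ones.

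The higher DUSP5 H3K4me3 lay in height more than in width. The called length, counted inside the gene window, was 5947 ± 740 bp untreated and 7135 ± 411 bp treated (SD, n = 3 each, ratio 1.20). The peak height relative to the library's typical gene was 0.723 ± 0.0820 and 1.19 ± 0.168 (ratio 1.64). Each gave an exact two-sided permutation p of 0.1, the smallest possible. The peak over the start ran 2543, 4523 and 3623 bases into the gene in untreated and 4703, 4603 and 4573 in treated libraries.

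SPRY2 H3K4me3 in REH differed the other way, in width more than in height. Its start level was 1.62, 1.64 and 1.38 untreated and 2.13, 2.10 and 2.22 treated, without overlap (log2 change 0.42, SE 0.06, adjusted p = 0.0429, limma with Benjamini-Hochberg adjustment). Over the gene window the change was 0.42 with an adjusted p of 0.0745. The called length was 4643 ± 973 bp untreated and 7020 ± 245 bp treated (ratio 1.51), while the mean signal over it was 0.945 ± 0.0701 and 0.900 ± 0.0382 (ratio 0.953). The exact permutation p was 0.1 for the length and 0.4 for the mean signal. The relative peak height, the measure used for DUSP5, was 0.848 ± 0.0885 untreated and 0.946 ± 0.0535 treated (ratio 1.12, exact permutation p = 0.2). The start call did not hold by the highest signal (0.13, adjusted p = 1.000), without centring on the library median (0.222), or without untreated replicate 2 or any 1 of the treated replicates (0.0744 to 0.207).

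The called SPRY2 peak reached further into the gene in the treated libraries. Its edge lay 2785, 2805 and 2615 bases downstream of the start in untreated REH and 4375, 4715 and 4815 bases downstream with bryostatin. The upstream edge overlapped between treatments (2414, 2404 and 904 against 2404, 2294 and 2454 bases). H3K4me2 had the same outline, with downstream edges at 2945, 2665 and 2645 against 4825, 4925 and 4935 bases. The called length inside the window was 5355 ± 335 against 7896 ± 60.8 bp (SD, n = 3 each, exact permutation p = 0.1). All treated peaks (3014, 3204 and 3364 bases upstream) and that of untreated replicate 2 (3024) ran past the 3 kb flank, so their lengths were cut there. The SPRY2 H3K4me2 level was 1.13, 1.23 and 1.18 untreated and 1.36, 1.30 and 1.58 treated (0.22, SE 0.08, adjusted p = 0.927). Untreated REH libraries had 13.7 to 18.8 M reads for H3K4me2 and 10.2 to 27.9 M for H3K4me3, and treated ones 18.2 to 22.8 M and 14.1 to 24.3 M; the part of depth in the called length was not tested.

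**Figure D2:**
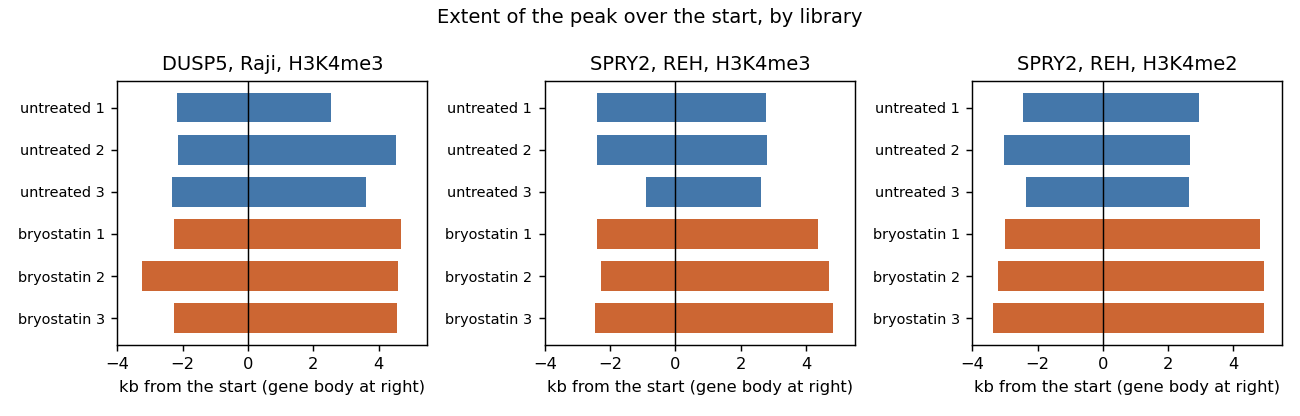
Extent of the peaks around the start, one bar per library, in kb from the start (positive into the gene). The panels show H3K4me3 of DUSP5 in Raji, H3K4me3 of SPRY2 in REH and H3K4me2 of SPRY2 in REH. The downstream ends of SPRY2 H3K4me3 lie at 2615 to 2805 bases in the 3 untreated and 4375 to 4815 bases in the 3 treated REH libraries.

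For SPRED2 in REH the K4 marks had changes of opposite sign, neither past the test. H3K4me3 was 1.25, 1.00 and 0.998 untreated and 1.62, 1.52 and 1.52 treated (0.44, SE 0.08, adjusted p = 0.132). H3K4me2 was 2.00, 1.92 and 2.08 untreated and 1.58, 1.57 and 1.75 treated (-0.26, SE 0.07, adjusted p = 0.726). Neither pair of groups overlapped. The H3K4me3 difference passed with equal numbers of peaks per library (0.63, adjusted p = 0.0168) and without untreated replicate 1 (0.53, adjusted p = 0.0231).

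No other member passed. DUSP1 H3K4me3 in REH was 2.34, 2.41 and 2.41 untreated and 1.84, 2.15 and 2.14 treated (-0.20, SE 0.06, adjusted p = 0.457). In NALM6 it was 0.657, 1.25 and 1.18 untreated and 1.44, 1.37 and 1.44 treated (0.42, SE 0.21, adjusted p = 1.000). DUSP6 H3K4me3 in NALM6 was 1.99, 1.80 and 1.68 untreated and 2.59, 2.15 and 2.57 treated (0.37, SE 0.18, adjusted p = 1.000). DUSP10 H3K4me3 in Raji was 0.715, 0.905 and 0.662 untreated and 1.06, 1.08 and 0.895 treated, which overlapped (0.32, SE 0.10, adjusted p = 0.944). No member was called in NALM6 when replicate 1 was left out of both groups.

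Among the phosphatases, DUSP10 gave the widest H3K4me2 change in Raji, at 1.96, 1.68 and 1.50 untreated and 2.19, 2.30 and 1.68 treated, which overlapped (0.23, SE 0.15, adjusted p = 0.830). Its called length there was 6520, 3830 and 7950 bp untreated and 18820, 19129 and 7530 bp treated, in libraries that differed in depth the same way. In NALM6 DUSP5 did so, with 0, 0.453 and 0.483 untreated and 0.811, 0.488 and 0.452 treated (0.70, SE 0.50, adjusted p = 1.000), where only replicate 1 differs between the groups. DUSP2 H3K4me3 in Raji was 1.27, 1.20 and 1.52 untreated and 1.57, 1.54 and 1.59 treated (0.20, SE 0.08, adjusted p = 0.944), and its H3K4me2 there overlapped (2.12, 2.13 and 2.64 treated). DUSP6 H3K4me3 in REH was 1.96, 2.09 and 2.07 treated, just above the untreated 1.83 to 1.87 (0.13, adjusted p = 0.502).

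SPRY1 H3K4me3 in REH was 0.928, 0.908 and 0.914 untreated and 0.972, 0.959 and 1.03 treated, apart by less than the spread of the treated libraries. In NALM6 it was 1.86, 1.17 and 1.09 against 1.41, 1.29 and 1.23, which overlapped. SPRY2 in NALM6 overlapped as well, with H3K4me3 at 1.13, 1.53 and 1.33 untreated and 1.63, 1.49 and 0.790 treated. The last value came from the shallow treated replicate 3, with 5.41 M reads. SPRED1 H3K4me3 in Raji was 0.843, 1.06 and 0.947 untreated and 1.19, 1.10 and 1.03 treated, and SPRED2 H3K4me3 in Raji was 0.794, 1.09 and 0.987 untreated and 1.11, 1.16 and 1.31 treated, of which SPRED2 alone had no overlap (0.26, SE 0.10, adjusted p = 0.944).

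A limma interaction term set the bryostatin change in Raji against that in REH. For H3K4me3 it called 0.0328% of 12209 genes and 1 member, DUSP5 (0.76, SE 0.09, adjusted p = 0.0283). DUSP5 had no H3K4me3 peak in any REH library, so no response could be measured there, and the term restates the Raji change, which did not pass on its own (adjusted p = 0.0977), with REH adding 6 libraries without spread. It did not pass by the highest signal (adjusted p = 1.000), when replicate numbers were blocked within each line (0.230), or when any of 9 single libraries was left out (0.0686 to 0.131). For H3K4me2, where 0.0217% of 13827 genes were called, no member was.

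The other genes of the pathway were read from 3 lists: 9 other DUSP, SPRY and SPRED genes, 20 genes of the cascade from the adaptors and RAS to ERK and its kinases, and 10 transcripts known to follow ERK. With bryostatin, 0 cascade genes of 17 to 20 tested and 0 response genes of 5 to 10 tested passed limma's test over the gene window in any line, for either mark. At an unadjusted p under 0.05 the cascade had 0 or 1 gene of 17 to 20 tested in each comparison. The response list had 3 of 10 genes for H3K4me2 in REH, beside 4.6% of all genes. For H3K4me3 it had 3 of 7 in Raji and 3 of 6 in REH, beside 4.44% and 6.72%. Its other counts were 1 of 8 for H3K4me2 in Raji, beside 4.10%, and 0 of 5 in NALM6 for each mark.

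The response genes that lay farthest from 0 without passing were the ETS factor ETV5 (1.02, SE 0.24, adjusted p = 0.265) and cyclin D1, CCND1 (0.84, SE 0.29, adjusted p = 0.591), for H3K4me3 in REH. In Raji they were MAFF (0.62, SE 0.17, adjusted p = 0.944) and PHLDA1 (0.60, SE 0.08, adjusted p = 0.147), and all 7 response genes tested there were above 0. The median log2 change of that list for H3K4me3 was 0.47 in REH (5 of 6 above 0), 0.17 in Raji and -0.18 in NALM6 (1 of 5 above 0), against -0.00, -0.00 and -0.10 for all genes. The cascade's medians for this mark were 0.01 in REH and Raji and 0.02 in NALM6. In the cascade the kinase BRAF lay farthest from 0 for H3K4me2, at 0.58 in Raji (SE 0.29, adjusted p = 0.830) and -0.59 in REH (SE 0.30, adjusted p = 0.927).

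Between untreated lines, 1 of 20 cascade genes differed between Raji and REH for H3K4me3 (the scaffold KSR1, -0.49, adjusted p = 0.0374), 4 between Raji and NALM6 and 2 between NALM6 and REH, beside 25.3%, 25.1% and 13.5% of all genes. For H3K4me2 it was 2 (the kinase RPS6KA1, 0.60, and the exchange factor SOS1, 0.36), 6 and 1 of 20, beside 30.2%, 26.9% and 22.3% of all genes. The response list had 6 of 9 genes lower in Raji than in REH for H3K4me2, among them ETV5 (-1.48, adjusted p = 0.0180) and the cytokine LIF (-1.11, adjusted p = 9.89e-06), and none higher. For that mark it had 2 higher and 2 lower in Raji than in NALM6, and 0 and 4 in NALM6 than in REH. For H3K4me3, of 7 tested, 1 was higher and 2 lower in Raji than in REH. Between Raji and NALM6 none differed, and NALM6 had 1 higher and 2 lower than REH. Of the other family genes, 4 of 8 differed between Raji and REH for H3K4me2 (SPRED3 -2.10, SPRY4 -1.90, DUSP3 -1.42 and DUSP8 0.62).

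One family gene outside the 10 did pass. SPRY4 (chr5:142310427-142326455, minus strand), another Sprouty, had H3K4me2 levels of 0.714, 0.705 and 0.627 in untreated REH and 1.58, 1.49 and 1.36 with bryostatin, without overlap (log2 change 0.89, SE 0.07, adjusted p = 0.0175). At its start the levels were 0.301, 0.292 and 0.308 against 2.01, 0.993 and 1.63 (1.66, SE 0.19, adjusted p = 0.0276). The called length was 5260, 5360 and 5670 bp untreated and 12160, 6540 and 8280 bp treated. By the highest signal the gene-window change was 0.32 (adjusted p = 0.748), and without untreated replicate 2 or 3 or treated replicate 1 or 2 the adjusted p lay between 0.0509 and 0.0928. The start call was not made by the highest signal (adjusted p = 0.145), with equal numbers of peaks (2.62, adjusted p = 0.102), with replicates blocked by number (1.66, adjusted p = 0.0774) or without any of 5 single libraries (0.0733 to 0.143).

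SPRY4 also carried H3K27me3, in REH and in some libraries of the other lines. In REH that mark covered 18039, 15765 and 12779 bp of its 22029 bp window untreated and 11629, 14765 and 14989 bp treated, which overlapped. H3K4me3 was called there in 1 REH library, treated replicate 2, at 0.101. In Raji H3K4me2 was called in treated replicates 1 and 2 (0.125 and 0.179), and in NALM6 in none. H3K27me3 covered 0, 8860 and 16049 bp of the window in untreated and 0, 1210 and 9870 bp in treated Raji. In NALM6 it covered 0, 4460 and 3960 bp untreated and 0, 6805 and 2490 bp treated.

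Within 100 kb of the members' starts, 0 H3K4me2 regions were called in all 3 treated and no untreated libraries, and 0 the reverse, in any line. Over the genome, the share of regions gained in that sense was 0.0904% (of 22117, Raji), 0.960% (of 13338, NALM6) and 0.0644% (of 20199, REH). The number lost over the genome was 0 in each line. Each member had from 0 to 11 H3K4me2 regions of any kind within that distance in a line. With so few regions and such low shares, the counts of 0 do not set the members apart from other genes.

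The genes on other chromosomes whose H3K4me2 followed a member most closely over the 18 libraries (Pearson r, among genes with a peak in at least 9 of them) were P4HTM and SCD for DUSP2 (0.99 for both), RILP and SPRY1 for DUSP6 (0.99), FAM117B and NFKBIZ for DUSP10 (0.97 and 0.95) and RHOC and GAS1 for DUSP1 (0.95). MDK and TRIM3 were closest to SPRY1 (1.00), RGS12 and MDK to SPRY2 (1.00), TDRKH and ZNF763 to SPRED1 (0.98 and 0.96), and SMYD3 to SPRED2 (0.96). These libraries share lines, treatments and scaling, and the values are descriptions.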

How the data were processed

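Per the submitters' processing notes and the paper's methods, the authors converted the reads with bcl2fastq, trimmed them with Trim Galore, aligned them to hg38 with Bowtie2 and called SEACR stringent peaks in each library. Tool versions are not given in the sources used here. The deposited signal values are each peak's total and maximum coverage: RPKM in 10 bp bins in 48 libraries, and an unstated scaling in the 6 libraries of NALM6 replicate 1. Depth was read from the step between RPKM values. Replicates were not pooled, and IgG libraries were not used here.

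Total signal was summed over peaks overlapping a gene with 3 kb flanks, or 1 kb on either side of any start (GENCODE 44), and divided by the library median. Genes with a peak in at least 3 libraries of a comparison were tested on log2(level + 0.25) with limma 3.58.1 (R 4.3.3; empirical Bayes with trend, Benjamini-Hochberg 0.05); between untreated lines 9 libraries entered, for the interaction 12. A fold change on this scale understates that of low genes. Called lengths count only bases inside the gene window and were compared by exact two-sided permutation (scipy 1.17.1). Promoters were RefSeq's, GRCh38.p14. The fits were tested on simulated data.

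The 10 genes and all lists were chosen with earlier results of these data known. All members are described, with the genes of highest Pearson r for those that passed a test (that for DUSP5 is not reported here), and the other lists by counts with up to 4 of their widest changes. Same-number libraries correlated in their deviations (all over 0.1) for H3K4me3 in Raji (0.47, 0.32 and 0.24) and H3K4me2 in NALM6 (0.45, 0.36 and 0.36). That is a hint of pairing from the data and not from the labels. Untreated and treated libraries of different numbers reached 0.22 (3 and 2) in Raji and 0.36 (2 and 3) in NALM6, so it does not settle the pairing. Alternatives covered the summary, centring, filter, pseudocount, window, replicate block and each library left out.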

Additional observations from a re-analysis of the deposited data

Results flagged for a closer look

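For DUSP5 H3K4me3 the limma interaction term, the log2 change in Raji minus that in REH, was 0.76 (SE 0.09, Benjamini-Hochberg adjusted p = 0.0283), and 3 of 3 treated Raji libraries were above all 3 untreated ones. REH had no peak of the mark in any library, so no response could be measured there and the value restates the Raji change. It did not pass by the highest signal (adjusted p = 1.000), with replicate numbers blocked within each line (0.230) or without any of 9 of the 12 libraries (0.0686 to 0.131).

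DUSP1 H3K4me3 stood out because the treated and untreated libraries were fully apart in opposite directions in NALM6 (log2 change 0.42, higher in 3 of 3) and REH (-0.20, lower in 3 of 3). The difference between these 2 lines was not tested, neither change passed alone, and the NALM6 groups include replicate 1 with its other scaling.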

How the results depend on the processing

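The number of members passing with bryostatin was 0 and became 1 (DUSP5) for Raji H3K4me3 over the gene window without centring, with the replicate block, with only the signal inside the window and with 10 kb flanks, and 0 to 1 with each library left out; at the starts it was 0, 1 without centring, 1 with the block and 0 to 1 with each library left out. For REH H3K4me3 it was 0 over the gene window, 1 when a peak in all 6 libraries was required, 2 with equal numbers of peaks, 1 with quantile normalization and 0 to 1 with each library left out, and at the starts 1 (SPRY2), 0 by the highest signal, without centring and with the block, and 0 to 1 with each library left out. For the H3K4me3 interaction it was 1, 0 by the highest signal and with the block within line, 2 with equal numbers of peaks, and 0 to 1 with each library left out. Between untreated lines, H3K4me2 gave 8 for Raji and REH (5 to 8 with each library left out), 5 for Raji and NALM6 (3 by the highest signal, 5 to 8 with each left out) and 1 for NALM6 and REH (1 to 7), and H3K4me3 gave 3 for NALM6 and REH (3 to 6). Opposite signs came by the highest signal for DUSP10 at the start in Raji H3K4me2 (-0.19) and for line differences of H3K4me2 in DUSP1 (Raji minus REH 0.17, NALM6 minus REH 0.25), SPRED2 (Raji minus NALM6 -0.08) and SPRY1 (NALM6 minus REH 0.15) and of H3K4me3 in DUSP2 (Raji minus NALM6 -0.19), and with equal numbers of peaks for Raji minus NALM6 H3K4me2 in DUSP10 (-0.02) and SPRED2 (-0.02). The cause was not tested.

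Counts over all genes moved more than 1.5 times in every bryostatin comparison. Over gene windows the main and lowest to highest counts were 4 (0 to 63), 0 (0 to 10) and 4 (2 to 41) for H3K4me2 in Raji, NALM6 and REH and 0 (0 to 38), 0 (0 to 12) and 29 (0 to 77) for H3K4me3; at starts they were 4 (0 to 91), 0 (0 to 22) and 30 (3 to 33), and 0 (0 to 30), 0 (0 to 6) and 43 (0 to 57). The interaction gave 3 (1 to 78) and 4 (0 to 106). Line differences for Raji minus REH, Raji minus NALM6 and NALM6 minus REH gave 3950 (2194 to 6300), 3523 (2492 to 5273) and 2911 (1377 to 3830) for H3K4me2 and 3066 (1948 to 5845), 3047 (1782 to 5091) and 1634 (901 to 3279) for H3K4me3. Without centring the median gene moved by 0.18 in Raji H3K4me2, 0.12 in NALM6 H3K4me2 and 0.16 in Raji H3K4me3. The replicate block, apart from DUSP5 in Raji and SPRY2 at its start in REH, changed no member's call within a line (it also ended the SPRY4 start call in REH); same-number correlations were 0.41, -0.4 and -0.28 for Raji H3K4me2, 0.45, 0.03 and 0.25 for REH H3K4me2, 0.50, 0.55 and 0.04 for NALM6 H3K4me3 and -0.58, -0.60 and 0.16 for REH H3K4me3, which do not pair those libraries. Leaving NALM6 replicate 1 out of both groups and Raji untreated replicate 2 out of H3K27me3 were chosen after seeing the data. Shallow H3K27me3 libraries limit what an empty window shows.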
